A study of Mus musculus with 5 samples.

Results

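Tuba3a, Dpep3, Slc25a31, Brdt and Rpl10l are 5 mouse genes expressed mainly in the testis that carry DNA methylation in stem cells next to their start sites, in a CpG island or, at Brdt, in a CpG island shore. They are 5 of the 12081 protein-coding genes, out of 21900, to which a region could be tied. The genes were chosen by their methylation levels in an earlier pass over these same data, so the levels below describe them and test nothing. The region of a gene was the longest CpG island (CGI) overlapping 1000 bp around either end of the gene and listed in all 5 libraries, or else the longest island shore. All 5 genes had such a region, an island at 4 and a shore at 1 (Brdt).

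The assay was reduced representation bisulfite sequencing, which reads cytosine methylation in CpG-rich DNA cut with the enzyme MspI, in 1 library per group, all of the C57BL6 strain. The groups were a female embryonic stem cell line (female ESC) and a parthenogenetic embryonic stem cell line (pESC), whose genome is maternal only, both grown on feeder cells with serum and LIF. Primordial germ cell-like cells were induced from each line (ESC-PGCLC and pESC-PGCLC) after passage with inhibitors and LIF, through 46 h of epiblast-like culture with activin A and bFGF and 4 days of floating culture with BMP4, LIF, SCF and EGF, and sorted for CD61 and SSEA1. Primordial germ cells (PGC) were taken from fetal gonads at stage E12.5 with SSEA1 beads, and the sources used here do not give their sex. Because every group is 1 library, no difference below has a replicate error or a test, and neighbours in any order of levels cannot be told apart by replicate spread. Read depth is unknown, since the files hold levels without read counts.

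Most CpG islands at gene starts are free of methylation in nearly all cells. A set of germline genes is an exception: their promoter islands gain methylation around implantation, which helps to keep them silent in somatic cells, and lose it as primordial germ cells erase their methylation. Tuba3a encodes an alpha-tubulin of the testis, and Slc25a31 encodes an ADP/ATP carrier of the inner mitochondrial membrane of male germ cells. Dpep3 encodes a membrane-bound dipeptidase of the testis. Brdt encodes the testis member of the BET family of bromodomain proteins, which read acetylated histones during spermatogenesis, and Rpl10l is an autosomal, intronless copy of the X-linked ribosomal protein gene Rpl10.

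The promoter of each gene is printed to show the CG content and motifs around the start site, beside which the measured regions lie; of its 300 bases the measured region covers 223 at Slc25a31, 180 at Dpep3, 83 at Tuba3a, 49 at Rpl10l and 0 at Brdt. Each runs 5′ to 3′ along the gene from 250 bases before the start site to 50 bases after it, from RefSeq on build GRCm38.p6 (the mm10 assembly), and capitals mark every CG, the dinucleotide whose methylation was measured.
Tuba3a, chr6:125286032-125286331, minus strand: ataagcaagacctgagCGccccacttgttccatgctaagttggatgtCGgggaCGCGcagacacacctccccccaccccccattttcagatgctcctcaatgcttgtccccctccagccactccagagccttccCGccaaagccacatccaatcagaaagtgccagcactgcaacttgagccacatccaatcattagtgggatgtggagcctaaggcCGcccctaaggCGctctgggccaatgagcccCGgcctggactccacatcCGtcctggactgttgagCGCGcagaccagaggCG
Dpep3, chr8:105979370-105979669, minus strand: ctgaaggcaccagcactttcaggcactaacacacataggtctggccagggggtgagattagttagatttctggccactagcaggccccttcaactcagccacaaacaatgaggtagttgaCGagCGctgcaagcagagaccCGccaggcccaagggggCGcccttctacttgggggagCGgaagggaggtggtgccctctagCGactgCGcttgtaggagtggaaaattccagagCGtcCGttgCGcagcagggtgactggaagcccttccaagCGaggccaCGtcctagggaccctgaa
Slc25a31, chr3:40708621-40708920, plus strand: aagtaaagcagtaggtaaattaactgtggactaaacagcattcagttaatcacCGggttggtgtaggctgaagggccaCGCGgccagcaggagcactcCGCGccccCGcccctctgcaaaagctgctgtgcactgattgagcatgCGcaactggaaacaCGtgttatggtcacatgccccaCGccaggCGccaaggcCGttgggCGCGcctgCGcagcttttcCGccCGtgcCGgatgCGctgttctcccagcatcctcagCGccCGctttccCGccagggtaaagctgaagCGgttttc
Brdt, chr5:107330944-107331243, plus strand: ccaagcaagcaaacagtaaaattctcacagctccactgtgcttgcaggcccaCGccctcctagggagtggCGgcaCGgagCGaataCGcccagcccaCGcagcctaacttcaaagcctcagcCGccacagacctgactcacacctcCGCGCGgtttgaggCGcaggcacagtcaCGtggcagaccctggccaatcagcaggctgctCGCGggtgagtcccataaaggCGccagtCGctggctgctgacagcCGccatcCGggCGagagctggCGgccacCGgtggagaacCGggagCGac
Rpl10l, chr12:66284352-66284651, minus strand: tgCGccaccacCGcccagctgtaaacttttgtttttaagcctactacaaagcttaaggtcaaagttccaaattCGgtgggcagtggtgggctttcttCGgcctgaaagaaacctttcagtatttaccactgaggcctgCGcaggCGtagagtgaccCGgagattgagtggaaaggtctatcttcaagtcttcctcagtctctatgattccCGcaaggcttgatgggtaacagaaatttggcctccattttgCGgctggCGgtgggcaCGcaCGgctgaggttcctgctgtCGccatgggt

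These promoters fell into a CpG-dense and a sparser group. Brdt held 23 CG and Slc25a31 22, against 13 in Rpl10l and 12 each in Tuba3a and Dpep3, while the median over all 32851 RefSeq promoters was 7. The ratio of observed to expected CG was 0.83 in Slc25a31, 0.74 in Brdt, 0.64 in Rpl10l, 0.47 in Tuba3a and 0.46 in Dpep3. The letters CCGG, the MspI site at which the assay cuts, occurred 3 times in Brdt, 2 times in Slc25a31, once in Tuba3a and Rpl10l, and not in the Dpep3 window, thus in 4 of the 5, whereas 52.8% of all promoters and 90.6% of those with at least 12 CG held the site.

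Both strands were also searched for GCGGGA, the core letters bound by E2F factors, and for CACGTG, the E-box bound by MAX dimers. Repressor complexes with E2F6 and MAX partners are known for silencing germline genes. Counting the first transcribed base as 0, GCGGGA lay on the reverse strand of Tuba3a from -119 to -114, of Slc25a31 from 20 to 25 and of Rpl10l from -43 to -38. It was in 3 of the 5 promoters, in 20.0% of all promoters and in 42.6% of the 13006 promoters with at least 12 CG. CACGTG lay in Slc25a31 from -93 to -88 and in Brdt from -78 to -73, thus in 2 of the 5, in 7.15% of all promoters and in 11.1% of those with at least 12 CG. No match of these 3 motifs overlapped another, and a match is a description of the letters only.

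The measured regions sat at the start sites with unequal cover. The Tuba3a island (chromosome 6, 125285873 to 125286114) ran from -33 to 208 bp of the start site, the Dpep3 island (chromosome 8, 105979058 to 105979549) from -130 to 361 bp, and the Slc25a31 island (chromosome 3, 40708698 to 40709241) from -173 to 370 bp. The Rpl10l island (chromosome 12, 66283872 to 66284400) lay wholly inside the gene (66283379 to 66284401), from 1 to 529 bp downstream of the start site. For Brdt no island at either end of the gene was listed in the files used here, and its shore (chromosome 5, 107331244 to 107333245) began directly downstream of the printed promoter. The gene table used gives no exons, so exonic and intronic parts were not separated.

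**Figure D1:**
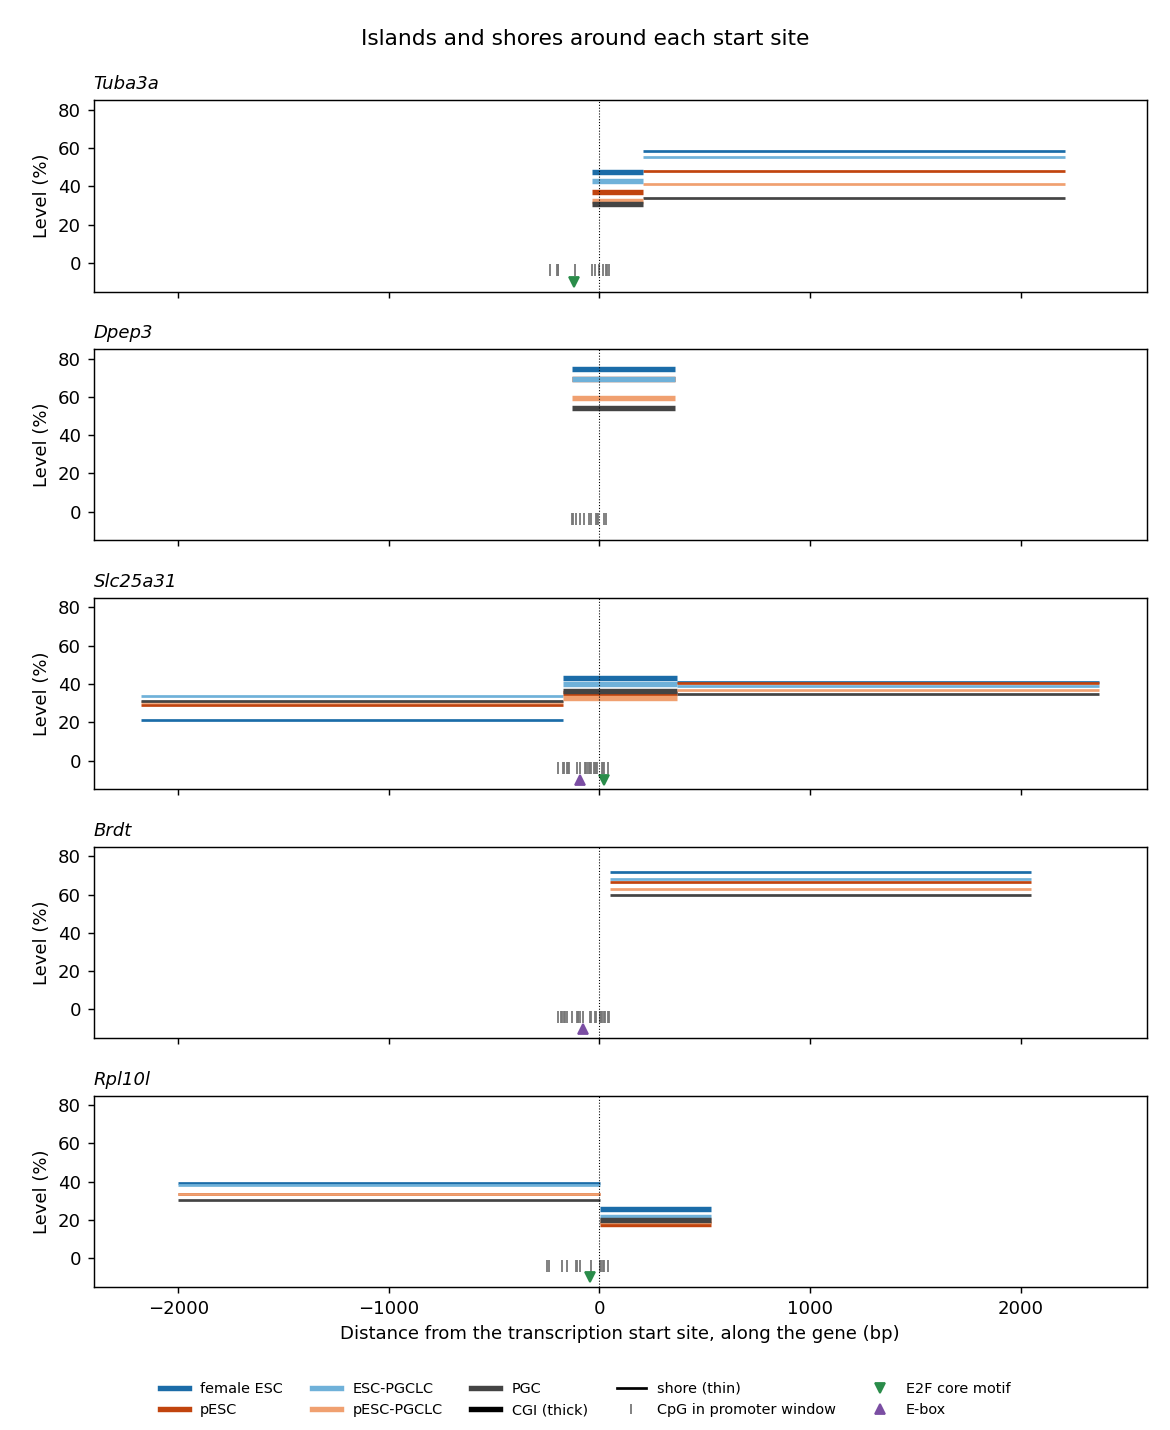
Level (%, vertical axis) of each island (thick lines) and shore (thin lines) around the start site of the 5 genes, by distance along the gene in bp (horizontal axis), with 1 line per library; grey ticks mark CG in the printed promoter, and triangles the E2F core and the E-box. The Tuba3a lines are spread from 30.6% to 47.3% in the island and from 34.0% to 58.2% in the shore, while female ESC is lowest at the upstream shore of Slc25a31 (21.4%); at Dpep3 the lines of pESC and ESC-PGCLC nearly coincide.

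The libraries differed little at the median island, which is almost unmethylated, and more at methylated islands. Over the 14214 islands listed in all 5 libraries, the median level was between 1.48% (PGC) and 1.65% (ESC-PGCLC and pESC-PGCLC), and the median island had a mean of 1.56%. The 5 regions here had means between 20.9% (Rpl10l) and 66.0% (Brdt), a range that held 425 islands, 2.99% of all. Over those 425, hereafter the islands in the genes' range, the average came to 46.5% in female ESC and 41.0% in pESC, 40.0% and 37.9% in the derived ESC-PGCLC and pESC-PGCLC, and 36.5% in PGC. As a check of the labels, the maternally methylated island of Airn was at 61.2% in pESC and 62.1% in pESC-PGCLC, against 2.01% in female ESC and 1.03% in ESC-PGCLC, and that of Kcnq1ot1 was at 67.7% and 75.0% against 16.7% and 20.5%. The parthenogenetic libraries were thus the higher ones at both, but in biparental cells the maternal copy alone would give an intermediate level, and both biparental libraries were below that, at Airn near the median island. PGC had 52.1% at Airn and 61.7% at Kcnq1ot1, at a stage when germ cells are known to be erasing imprints. Methylation levels name no cell type, so the purity of the sorts was not tested.

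Dpep3 and Brdt were the most methylated of the genes. Dpep3 had a level of 74.5% in female ESC and 69.4% in pESC, 69.2% and 59.3% in the derived ESC-PGCLC and pESC-PGCLC, and 54.4% in PGC. The shore of Brdt had 72.0%, 66.8%, 68.3%, 62.9% and 59.9% in the same libraries. Both genes stayed at or above 54.4% everywhere, with female ESC at the top and PGC at the bottom, and the spread was wider at Dpep3 (20.1 points) than at Brdt (12.1 points).

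Tuba3a and Slc25a31 had almost the same mean, 38.0% and 37.5%, with different profiles. Tuba3a was at 47.3% in female ESC and 37.1% in pESC, 42.5% and 32.3% in the derived ESC-PGCLC and pESC-PGCLC, and 30.6% in PGC. Slc25a31 was at 43.2%, 35.2%, 40.0%, 32.8% and 36.2%. In Slc25a31 the PGC library therefore lay above both parthenogenetic libraries, and in Tuba3a below them.

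Rpl10l was the least methylated. Its island was at 25.8% in female ESC and 17.8% in pESC, 21.4% and 19.3% in the derived ESC-PGCLC and pESC-PGCLC, and 20.2% in PGC. Apart from female ESC, its other libraries lay between 17.8% and 21.4%.

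Female ESC had the highest level at all 5 genes, as it did at 76.5% of the islands in the genes' range, and PGC the lowest at 3 of 5 (Tuba3a, Dpep3 and Brdt), against 46.8% of those islands. The lowest library was pESC-PGCLC at Slc25a31 and pESC at Rpl10l. All 5 genes were lower in pESC than in female ESC and also lower in pESC-PGCLC than in ESC-PGCLC, which held for 68.9% of the islands in the range. In 4 of the 5, Dpep3 being the exception, pESC was below ESC-PGCLC, against 54.8% of those islands. Apart from PGC being lowest, each of these patterns also held for most islands in the range.

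**Figure D2:**
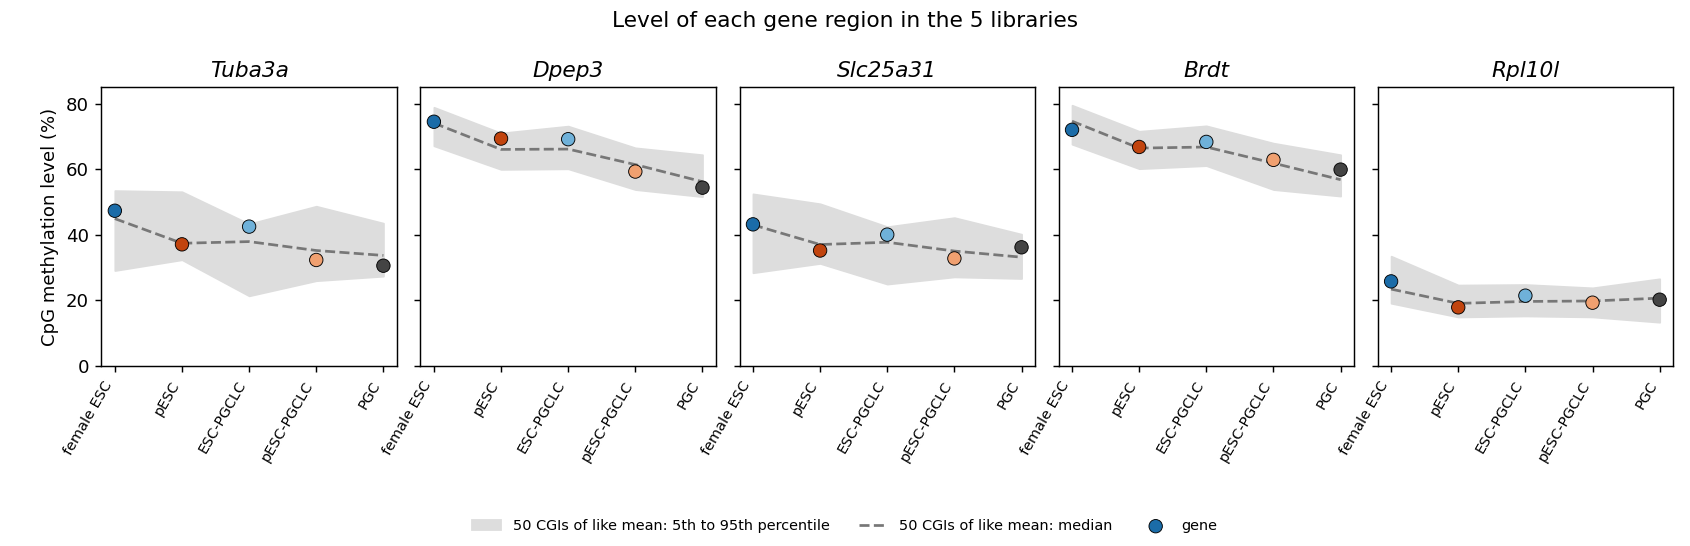
CpG methylation level (%, vertical axis) of each gene region in the 5 libraries (horizontal axis); points are the single libraries, the dashed line is the median and the grey band the 5th to 95th percentile of the 50 CGIs nearest in mean level. All 25 points lie within the bands, and ESC-PGCLC at Tuba3a, with 42.5%, lies near the upper edge of 43.3%.

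Cytosines outside CG were almost unmethylated in the same regions. Over the 25 values of the 5 regions and 5 libraries, the CHH level was between 0.111% and 0.967% (median 0.679%) and the CHG level between 0.454% and 1.77% (median 0.875%). The CpG levels thus stood far above this floor of unconverted or non-CpG methylated bases in every library.

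Neighbouring shores, which did not choose the genes except at Brdt, shared the island's order of libraries only at Tuba3a. Female ESC was highest and PGC lowest in 3 of the 4 shores of Tuba3a, Slc25a31 and Rpl10l. For comparison, female ESC was highest at 76.5% and PGC lowest at 46.8% of the islands in the genes' range. The share of all shores with both was not computed. The downstream shore of Tuba3a (chromosome 6, 125283872 to 125285872) had 58.2% in female ESC and 47.7% in pESC, 55.5% and 40.9% in the derived ESC-PGCLC and pESC-PGCLC, and 34.0% in PGC. It had a wider difference between PGC and female ESC, of -24.2 points against -16.8 points. The upstream shore of Rpl10l (chromosome 12, 66284400 to 66286401) had 39.5%, 33.6%, 38.2%, 33.3% and 30.7% in the same libraries, so PGC was lowest there although it was not lowest in the island.

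Slc25a31 differed between its sides. Its downstream shore (chromosome 3, 40709241 to 40711242) had 41.1% in female ESC and 40.5% in pESC, 38.9% and 36.6% in the derived ESC-PGCLC and pESC-PGCLC, and 34.8% in PGC. Its upstream shore (chromosome 3, 40706697 to 40708697) had 21.4%, 29.0%, 33.7%, 30.8% and 31.3%, and was the 1 methylated region of these genes in which female ESC was lowest. In female ESC the same shore was listed at exactly 0 in both the CHG and CHH contexts, against 0.568% to 1.30% in the other libraries, and whether few reads lie behind that entry was not tested. Brdt held a further island inside the gene (chromosome 5, 107359680 to 107360014), 28486 bp downstream of the start site, which was almost unmethylated, with 1.18%, 0.433%, 1.32%, 2.97% and 0.940%. Methylation at Brdt was therefore high next to the start site and near 0 in the gene body island.

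The comparison of PGC with female ESC put fetal germ cells beside biparental stem cells. All 5 genes were lower in PGC, with differences of -20.1 points at Dpep3, -16.8 at Tuba3a, -12.1 at Brdt, -7.00 at Slc25a31 and -5.59 at Rpl10l, and medians of 36.2% in PGC and 47.3% in female ESC. Of the islands in the genes' range 88.2% were lower in PGC, with a median difference of -11.2 points beside -12.1 for the genes. When each library was scaled to the mean of its islands with a mean of at least 30%, Slc25a31 and Brdt turned, to 2.19 and 3.14 points higher in PGC, and the median difference went from -12.1 to -0.262 points. The difference reached 10 points at 3 of 5 genes, a size reached by 2.27% of all islands and by 55.3% of the islands in the genes' range, so a difference of that size was common at islands methylated to this degree. As a share of the female ESC level, PGC stood at 64.6% at Tuba3a, 73.0% at Dpep3, 78.3% at Rpl10l, 83.1% at Brdt and 83.8% at Slc25a31.

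Against the 50 islands nearest in mean level, the genes lay on both sides. Tuba3a had a more negative difference than 41 of its 50 (median -12.4 points, 5th to 95th percentile -22.0 to 13.9), and Dpep3 also than 41 of its 50 (median -16.4). Rpl10l had a more negative difference than 35 of 50 (median -3.24). For Slc25a31 and Brdt most like islands were the more negative ones, 36 of 50 (median -11.7) and 42 of 50 (median -16.6). Tuba3a and Slc25a31 share 43 of their 50 islands and Dpep3 and Brdt share 47, so each pair is read against nearly the same background. Against the 50 shores of like mean level, a setting added after the values had been seen, the Brdt shore differed from the median by 1.89 points in place of 4.42.

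**Figure D3:**
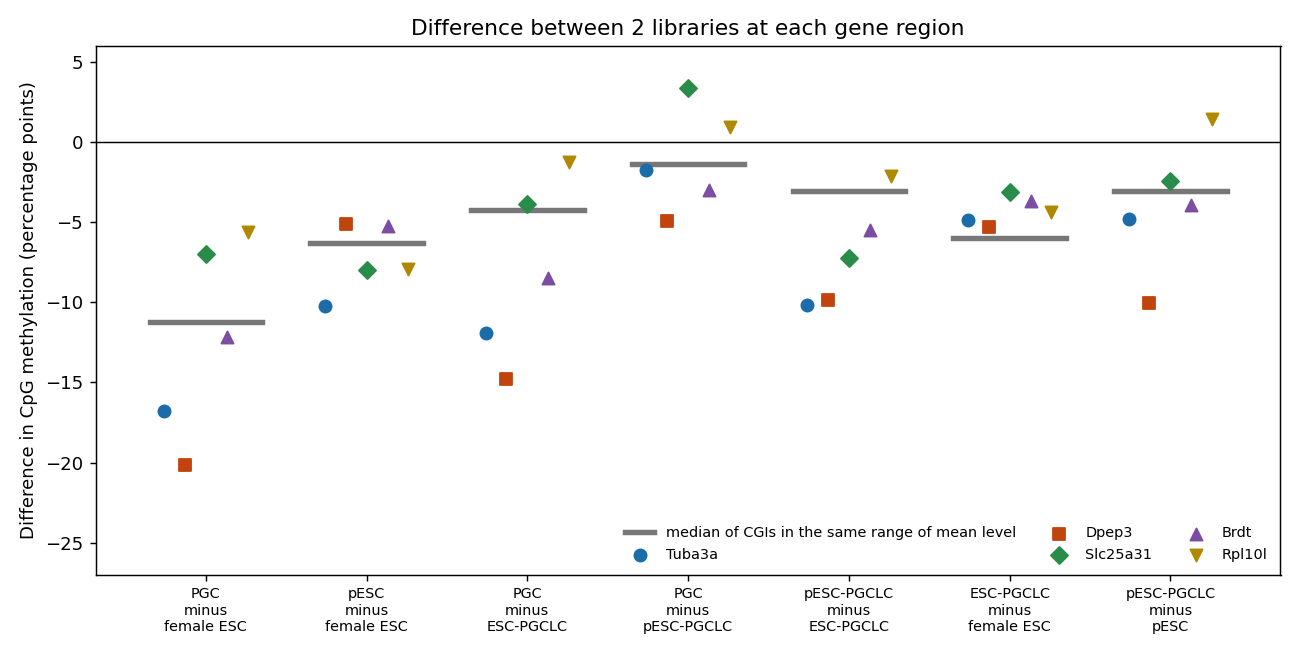
Difference in level between 2 libraries (percentage points, vertical axis) for each of 7 comparisons (horizontal axis); each symbol is 1 gene in 1 pair of libraries and the grey bar is the median of the 425 CGIs in the genes' range. For pESC-PGCLC minus ESC-PGCLC 4 of the 5 genes are below the bar, Rpl10l being the exception (-2.14 against -3.03 points), and all 5 are above it for ESC-PGCLC minus female ESC.

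The comparison of pESC with female ESC set a maternal-only genome beside a biparental one. All 5 genes were lower in pESC, as were 89.2% of the islands in the genes' range, with differences of -10.3 points at Tuba3a, -7.99 at Slc25a31, -7.93 at Rpl10l, -5.23 at Brdt and -5.14 at Dpep3. With libraries scaled to their methylated islands, Dpep3 and Brdt turned, to 1.97 and 1.65 points higher in pESC, and the median difference went from -7.93 to -3.76 points. Only Tuba3a differed by 10 points, 1 of 5, against 0.901% of all islands and 23.3% of those in the genes' range. Rpl10l, which in pESC was at 69.2% of its female ESC level, differed more negatively than 40 of its 50 islands of like mean level, while 36 of the like islands of Dpep3 and 38 of those of Brdt were more negative than the gene. Against shores of like mean level the departure of Brdt turned, from 1.66 to -1.37 points.

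The same contrast after induction, pESC-PGCLC against ESC-PGCLC, had the widest median departure from like islands of the 7 comparisons, -4.80 points. All 5 genes were lower in pESC-PGCLC, as were 72.9% of the islands in the range, with differences of -10.2 points at Tuba3a (32.3% against 42.5%), -9.88 at Dpep3, -7.27 at Slc25a31, -5.48 at Brdt and -2.14 at Rpl10l. Their median of -7.27 points stood beside -3.03 points for the islands in the range, and it was the 1 comparison whose median kept within 1.5 times of its value when libraries were scaled (-5.45 points), with all 5 genes still lower. The difference was more negative than at 46 of the 50 islands of like mean level for Tuba3a, 45 for Slc25a31, 43 for Dpep3, 34 for Rpl10l and 29 for Brdt. A difference of 10 points was seen at 1 of 5 genes, Tuba3a, against 0.359% of all islands and 10.4% of those in the range. At Tuba3a the gap without scaling was alike before and after induction, with -10.3 points between the stem cell lines and -10.2 points between their derivatives. With scaling the gaps were -5.59 and -8.39 points.

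After induction from the female ESC line all 5 genes were lower by similar amounts, as were 86.1% of the islands in the genes' range. The differences were -5.33 points at Dpep3, -4.85 at Tuba3a, -4.36 at Rpl10l, -3.69 at Brdt and -3.14 at Slc25a31. With scaling, 4 of them turned, to 4.66 points at Brdt, 3.30 at Dpep3, 1.87 at Slc25a31 and 0.640 at Tuba3a. No gene was 10 points lower, against 0.95% of all islands and 25.2% of those in the genes' range, and 4 of the 5 were above the median difference of their like islands, Rpl10l being the exception. Brdt was at 94.9% of its stem cell level, where its like islands had a median of 90.4%, but its departure of 3.38 points from them was 1.00 points against shores of like mean level.

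After induction from the pESC line 4 of the 5 genes were lower, as were 73.4% of the islands in the genes' range. The median difference over the 5 genes was -3.94 points, beside -3.06 points for those islands. Dpep3 went from 69.4% to 59.3%, a difference of -10.1 points that was more negative than at 45 of its 50 like islands. The difference was -4.77 points at Tuba3a, -3.94 at Brdt and -2.41 at Slc25a31, while Rpl10l was 1.43 points higher in pESC-PGCLC. These differences were lower than at 34 of 50 like islands for Tuba3a, 27 for Slc25a31 and 19 each for Brdt and Rpl10l. With scaling, Brdt and Slc25a31 turned, to 1.00 and 0.174 points higher in pESC-PGCLC. The difference of 10 points at 1 of 5 genes compares with 0.338% of all islands and 7.76% of those in the range. The pESC line thus had the more negative difference at Dpep3, the female ESC line at Rpl10l. Without scaling both had nearly the same one at Tuba3a (-4.77 and -4.85 points), but with scaling these were -2.17 and 0.640 points. These differences of differences were not tested.

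The comparisons of each germ cell-like population with PGC, which share the PGC library, differed in size. All 5 genes were lower in PGC than in ESC-PGCLC, with differences of -14.8 points at Dpep3, -11.9 at Tuba3a, -8.45 at Brdt, -3.87 at Slc25a31 and -1.23 at Rpl10l, of which Slc25a31 and Rpl10l turned with scaling, to 0.318 and 1.11 points higher in PGC. Of the islands in the range 75.3% were lower in PGC. The difference reached 10 points at 2 of 5, against 0.802% of all islands and 19.8% of those in the range. It was more negative than at 45 of the 50 like islands for Dpep3, 44 for Tuba3a, 35 for Rpl10l, 26 for Slc25a31 and 19 for Brdt.

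Against pESC-PGCLC no gene was 10 points lower in PGC, whereas 0.19% of all islands and 4% of those in the range were. Dpep3 (-4.91 points), Brdt (-2.97) and Tuba3a (-1.75) were lower in PGC and Slc25a31 (3.40) and Rpl10l (0.913) higher, with Brdt and Tuba3a turning on scaling, to 0.486 and 0.00148 points. At Slc25a31, 47 of the 50 like islands had a more negative difference, against 35 for Brdt, 27 for Rpl10l, 26 for Tuba3a and 22 for Dpep3. The median over the genes was -1.75 points, or -0.418 points without Dpep3. Of the islands in the range 60% were lower in PGC, with a median difference of -1.35 points.

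Paralogues of these genes, most of which are expressed outside the testis, were compared in level. Of 14 paralogues, 9 had a region, and 6 of these 9, those measured on islands, had a mean below 5%. The median of all islands was 1.56%, so such levels are usual for an island. The 5 genes were chosen by their levels, so the contrast is partly built in. The tubulin islands of Tuba1a, Tuba1b and Tuba1c were between 0.872% and 1.79% in all libraries, against 30.6% to 47.3% for Tuba3a. The ADP/ATP carrier islands of Slc25a4 and the X-linked Slc25a5 were between 1.35% and 2.36%, against 32.8% to 43.2% for Slc25a31. The island of the BET gene Brd2 was between 1.20% and 1.60%.

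The other 3 paralogues were measured on shores, where levels are higher, so they are no match for an island. The Tuba4a shore had 24.6% in female ESC and 14.6% in pESC, 14.6% and 13.1% in the derived ESC-PGCLC and pESC-PGCLC, and 12.0% in PGC. The Brd3 shore had 31.0%, 24.1%, 22.5%, 19.5% and 21.9%, below the 59.9% to 72.0% of the Brdt shore. The region of a paralogue could lie at either end of its gene. Its distance from the start site was not measured, so these regions may not lie at promoters. The shore of Rpl10, the X-linked parent gene of Rpl10l, had 9.09%, 12.3%, 7.09%, 10.3% and 19.3%, and was the 1 measured paralogue in which PGC stood well above the other libraries. Whether few reads lie behind these levels was not tested. Tuba3b, Tuba8, Tubal3, Dpep1 and Dpep2 had no region by this rule, so Dpep3 has no measured paralogue.

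**Figure D4:**
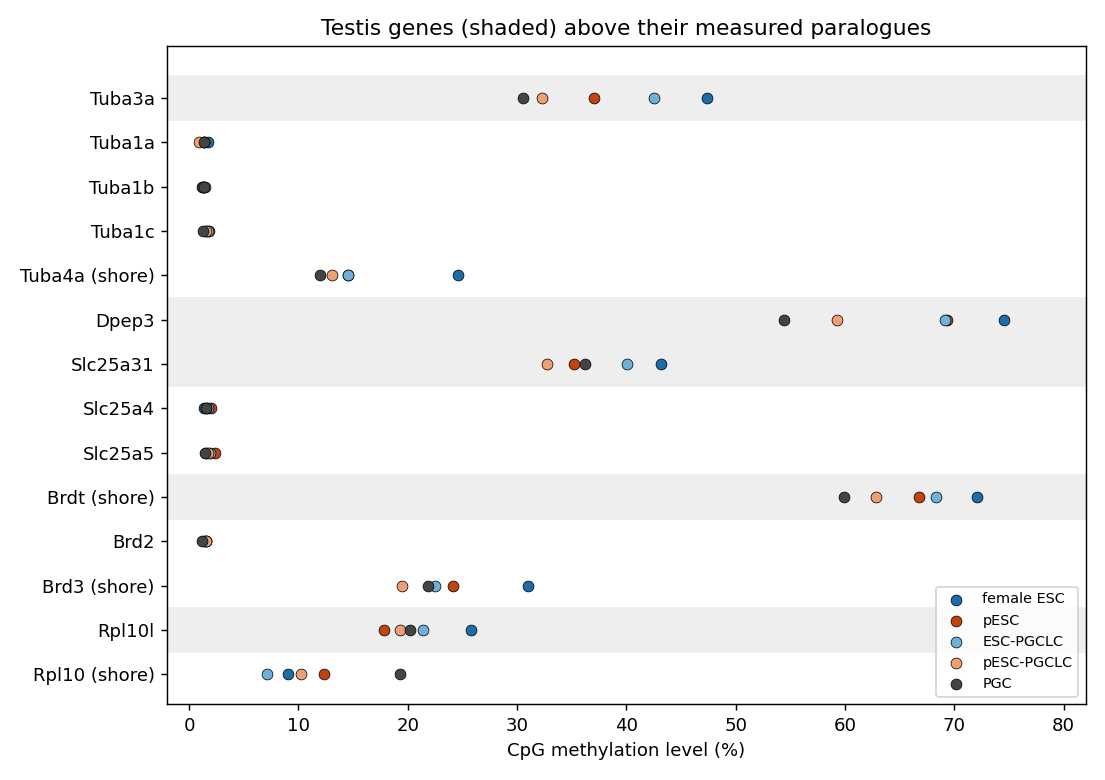
CpG methylation level (%, horizontal axis) of the 5 testis genes (shaded rows) and their 9 measured paralogues (other rows), with 1 point per library; shores are marked as such, and some points overlap. Islands of paralogues lie between 0.872% and 2.36%, and islands of the testis genes between 17.8% and 74.5%.

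Other germline genes were less uniform. Of 40 listed, 18 had a region, of which 7 had a mean in the range of the 5 genes and 5 had a mean below 5%. Some of those 7 were measured on shores, for which the shares of islands given here are no match. Of the 7, 6 were lower in PGC than in female ESC, with a median difference of -11.0 points. Of the islands in the genes' range 88.2% were lower, with a median of -11.2 points. Lower in pESC than in female ESC were 5 of the 7, against 89.2% of those islands. Lower in pESC-PGCLC than in ESC-PGCLC were 6 of the 7, against 72.9%. Female ESC was highest in 4 of the 7, against 76.5% of those islands and all 5 of the genes here. This list and the 5 genes were chosen with earlier results known, and no test compares them.

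The 4 germline genes nearest in mean level to 1 of the 5 genes were Dazl, Tssk2, Majin and Mael. Dazl, an RNA-binding protein gene needed for germ cell development, had an island mean of 20.7%, beside 20.9% at Rpl10l, with 25.5% in female ESC and 20.9% in pESC, 22.9% and 18.0% in the derived ESC-PGCLC and pESC-PGCLC, and 16.3% in PGC. Its PGC level was the lowest of its libraries, unlike that of Rpl10l. The shore within 1000 bp of Tssk2, a testis-specific serine kinase gene, had 69.6%, 63.4%, 67.1%, 65.0% and 58.6% in the same libraries. Mael, a transposon-silencing gene of the germline, had 31.0%, 22.5%, 30.4%, 21.8% and 22.9%. At Dazl, Tssk2 and Mael both parthenogenetic libraries lay below their biparental counterparts. The same held for the 5 genes and for 68.9% of the islands in the genes' range. Majin, a gene for the attachment of telomeres to the nuclear envelope in meiosis, had 27.8%, 14.0%, 13.3%, 16.0% and 26.9%, and was the 1 of these 4 in which PGC was close to female ESC. It was listed at exactly 14% in pESC and 16% in pESC-PGCLC, and whether few reads lie behind its levels was not tested.

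Some other genes had nearly the same 5 levels. By the mean absolute difference over the 5 libraries, the nearest to Tuba3a were the shores of Adad1 (1.58 points) and Gm30191 (1.67), and to Dpep3 the shore of Akap7 (1.39) and an island of Cdh23 (2.11). The nearest to Brdt were an island of Tmem267 (1.66) and the same Cdh23 island (1.73). Slc25a31 was nearest to the shores of Cc2d2b (2.20) and Cd83 (2.23), and Rpl10l to the shore of Mok (1.09) and an island of 1700029P11Rik (1.31). Every gene here thus had at least 1 counterpart elsewhere with a profile within 2.20 points, and no function is read from that likeness.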

How the data were processed

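DNA methylation was measured in 5 libraries, 1 per group. Per the submitters' processing notes, Bismark 0.16.3 and Bowtie2 were used with the build mm10; the sources used here do not say what each did, how reads were trimmed or whether coverage was filtered. The authors deposited the methylation level of each region in each cytosine context as a fraction of 1, with no read counts, so depth, intervals and site-level tests cannot be given. Levels are printed as percent and differences in percentage points. Region coordinates are as deposited, with a counting base that is not stated. Genes, promoters and strands came from RefSeq tables of GRCm38.p6, and all 5 genes matched by symbol. For Brdt the start site of the promoter table differs from the gene table's start.

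The longest CGI within 1000 bp of either gene end was used, else the longest shore. Each gene was set beside the 50 CGIs nearest in mean level over the 5 libraries, as a description. Differences of at least 10 points were counted, with no test. Promoter, exon and intron entries carry identifiers that could not be paired with symbols and were not used here. Calculations used Python 3.11.15, pandas 2.3.3 and numpy 2.4.6, and the counting was checked on simulated libraries. The genes, lists and settings were chosen with earlier results of these data known. Named genes were the 5 genes, their measured paralogues, the 4 listed germline genes nearest in mean level, the 2 genes nearest in profile to each, and Airn and Kcnq1ot1. A further paralogue, outside the 14 counted, is not reported here.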

Additional observations from a re-analysis of the deposited data

Results flagged for a closer look

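At Rpl10l the 2 lines moved in opposite directions on induction. The level changed by -4.36 points from female ESC to ESC-PGCLC and by 1.43 points from pESC to pESC-PGCLC. Each change rests on 1 library a side, and the difference between them was not tested. Of the 50 islands nearest to Rpl10l in mean level, 36 were lower in ESC-PGCLC than in female ESC (median difference -3.27 points). Only 26 of them were lower in pESC-PGCLC than in pESC (median difference -0.240 points), and 31 had a difference below that of Rpl10l. A rise in the pESC line was therefore common at such islands. How many of them moved in opposite directions in the 2 lines was not computed. In the upstream shore of Rpl10l the change in the pESC line was -0.228 points.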

How the results depend on the processing

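Of 42 recomputed median differences (7 comparisons, 6 alternatives), 35 kept their sign and stayed within 1.5 times of the reported value. A 2000 bp window, or all regions in the window, gave the same regions at all 5 genes. Those alternatives therefore could not change a median, and their medians are counted among the 35. A window of 0 bp left Brdt without a region and gave Rpl10l its shore. Of the 7 that moved, 6 came from scaling each library to its methylated islands: the median went to -0.262 points for PGC against female ESC, -3.76 for pESC against female ESC, -1.52 for PGC against ESC-PGCLC, 0.486 for PGC against pESC-PGCLC, 1.87 for induction from the female ESC line and 0.174 for induction from the pESC line. Scaling removes the shift shared by methylated islands by construction. The seventh was PGC against pESC-PGCLC without the gene of the largest difference (-0.418 points). All 28 recomputed medians of the genes against like islands moved by at most 2 points, a margin set after the values were seen, and 10 of 147 values for single genes changed sign. The margin exceeds some of the medians. For induction from the pESC line the median changed sign, from -0.388 points to 0.177 with the 100 nearest islands. It was 0.129 with islands within 5 points and 0.908 with islands nearest in female ESC alone. The share of islands past the difference threshold fell at 25 points and rose at 5 points by construction. No paired analysis was possible because each group has 1 library. Unknown read depth limits every value.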
